A study of Mus musculus with 4 samples.

Results

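The genes described are 10 transcription factor genes of the AP-1 and MAF families (Fos, Fosb, Fosl1, Fosl2, Jun, Junb, Jund, Atf3, Maff and Mafk), and the measurement is binding of the glucocorticoid receptor (GR) near them. They are 10 of 21883 protein-coding genes, fixed by name with earlier results of these data known. Each was given every GR peak whose centre lay in the gene span or within 100 kb of it. That rule took 12 of the 5638 peaks listed after 1 h of corticosterone and 6 of the 2883 listed after 12 h. The lists come from chromatin immunoprecipitation and sequencing (ChIP-seq) of 33AP1C9 cells, a mouse mammary epithelial line whose labelled parent is the C127 line. In every condition the cells carried stably integrated copies of an MMTV-pp7 reporter and a GFP-tagged PP7 coat protein. Cells were kept in charcoal-dextran serum before hormone and then got no hormone, 600 nM corticosterone for 1 h, or the same dose for 12 h. Each of these conditions has 1 library, so no difference between conditions has a replicate check or a test. The labels give the second GR antibody with a catalogue number that rises in even steps from sample to sample, which may be an entry error; whether the antibody differed between samples is not known. Peak lists hold no expression values, and the labelled cell type was not checked against its markers.

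AP-1 is a dimer of basic leucine zipper proteins, in which a JUN protein pairs with a FOS, an ATF or another JUN protein on the DNA of target genes. Fos, Fosb, Jun, Junb and Atf3 are classic immediate early genes, switched on within minutes by growth factors and stress. The small MAF proteins, such as MAFF and MAFK, have the zipper but no activation domain and pair mainly with CNC-type factors. GR and AP-1 are long known to meet: ligand-bound GR can restrain AP-1 activity, and AP-1 has been described to keep chromatin open for GR in mouse mammary cells.

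The libraries held 79203826 (untreated), 90556119 (1 h) and 97749688 tags (12 h). Values below are normalised tags, that is tags in the peak window per 10000000 tags of the library, in windows of 282 bp at 1 h and 302 bp at 12 h, with positions in mm10. The caller used the untreated library as control for the treated lists and kept sites at 6-fold or more over it, so every listed site stands above that library by construction.

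The GR peak closest to the start of any member lay in Maff, and it is the only one for which promoter sequence of a member lies inside the peak. RefSeq (GRCm38.p6) gives Maff 3 starts on the plus strand of chromosome 15, at 79346621, 79347520 and 79348402. The 1 h peak (chr15:79347943-79348225) lay between the second and the third, with its centre 0.564 kb past the second start and 0.318 kb before the third. The sequences are the 250 bases before each of those starts. Capitals mark the cAMP response element TGACGTCA, which begins 29 bases before the second start, and in the other sequence the 74 bases that lie inside the GR peak.

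Maff before start 2 (chr15:79347270-79347519, plus strand): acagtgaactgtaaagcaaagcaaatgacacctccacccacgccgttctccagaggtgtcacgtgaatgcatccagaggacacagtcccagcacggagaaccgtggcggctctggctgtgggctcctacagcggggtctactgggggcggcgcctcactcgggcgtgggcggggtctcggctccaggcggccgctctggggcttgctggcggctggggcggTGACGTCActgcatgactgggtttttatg
Maff before start 3 (chr15:79348152-79348401, plus strand): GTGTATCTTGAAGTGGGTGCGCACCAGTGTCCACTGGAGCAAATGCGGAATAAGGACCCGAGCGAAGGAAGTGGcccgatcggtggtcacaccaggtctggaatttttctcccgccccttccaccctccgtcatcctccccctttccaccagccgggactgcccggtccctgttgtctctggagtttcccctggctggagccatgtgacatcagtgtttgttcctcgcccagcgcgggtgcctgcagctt

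Motifs were searched on both strands from 250 bases before to 50 bases after each start, for 11 windows of 9 members and for 32851 windows in the table. The cAMP response element TGACGTCA was in 1 member window, that of the second Maff start, and in 1.79% of all windows. The hexamer AGAACA of the glucocorticoid response element (GRE) was in 2 member windows, after the first start of Maff and after the start of Mafk, and in 19.0% of all windows. The AP-1 site TGACTCA (5.2% of all windows), the MAF element core TGCTGAC (4.67%) and the full GRE palindrome (0.00913%) were in no member window. The rest of the Maff peak lies outside these windows and was not searched.

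GR peaks were listed for 7 of the 10 genes in the 1 h library and for 5 in the 12 h library, where 37.4% and 22.3% of all protein-coding genes had one by the same rule. The members were chosen with earlier results of these data known, so these counts are no test of enrichment over all genes. Fos, Fosb, Junb, Jund and Atf3 had peaks at both times, Jun and Maff at 1 h alone, and Fosl1, Fosl2 and Mafk at neither. Of the 12 peaks at 1 h, 6 lay within 25 kb of their member. Only 1 of the 13 distinct sites was inside the span of its member, 6 were upstream and 6 downstream, and for 7 sites another protein-coding gene was nearer. Of the 12 peaks at 1 h, 5 had their centre inside a protein-coding gene, against 42.9% of the whole list. Within 25 kb the counts were 3 and 2 of 10, against 16.9% and 9.22% of all genes. The member windows also differed in how many genes they held, from 1 other protein-coding gene around Fos and Jun to 17 around Junb, where the median gene had 4; the part of this in the counts was not tested.

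**Figure D1:**
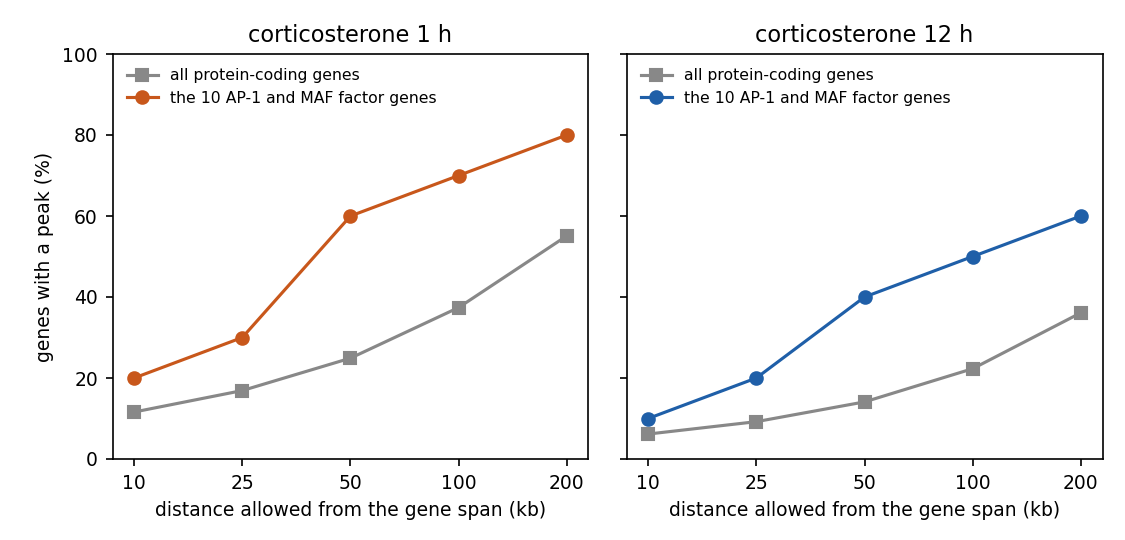
Percentage of genes with a GR peak centre in or near the gene span (vertical axis) for 5 allowed distances in kb (horizontal axis, in steps), at 1 h (left) and 12 h (right). Circles are the 10 AP-1 and MAF factor genes and squares are all 21883 protein-coding genes; at 100 kb the member counts are 7 and 5 of 10, and at 10 kb they are 2 and 1 of 10. The squares stand at 11.6, 16.9, 24.9, 37.4 and 55.1% at 1 h and at 6.16, 9.22, 14.1, 22.3 and 36.1% at 12 h. The 10 genes were chosen with earlier results of these data known.

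In strength the sites lay around the middle of the 1 h list. The 12 member peaks at 1 h held between 10.5 and 83.0 normalised tags, with a median of 19.15, against 18.3 over the whole list, whose strongest peak held 432.9. At 12 h the 6 member peaks held 7.98 to 42.3, with a median of 13.15 against 18.0. In the untreated library the 1 h windows held 4 to 17 whole tags (median 10, against 11 over all 1 h sites). The whole untreated list held 1 peak, which lay in no member window. Of 378 putative untreated peaks, 377 had been removed by the required fold over control. The control library of that list is not named here. The lack of an untreated peak in these windows is therefore not read as a measure of binding before hormone. Of the 12 peaks at 1 h, 5 overlapped a peak at 12 h (41.7%, Wilson 95% interval 19.3 to 68.0%), where the whole list gives 43.2%. Those 5 were 83.3% of the 12 h member peaks (43.6 to 97.0%), against 84.5% of the whole 12 h list. Both shares lie close to those of the lists. Fewer cells with GR at a site and less GR per cell cannot be told apart in such libraries.

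**Figure D2:**
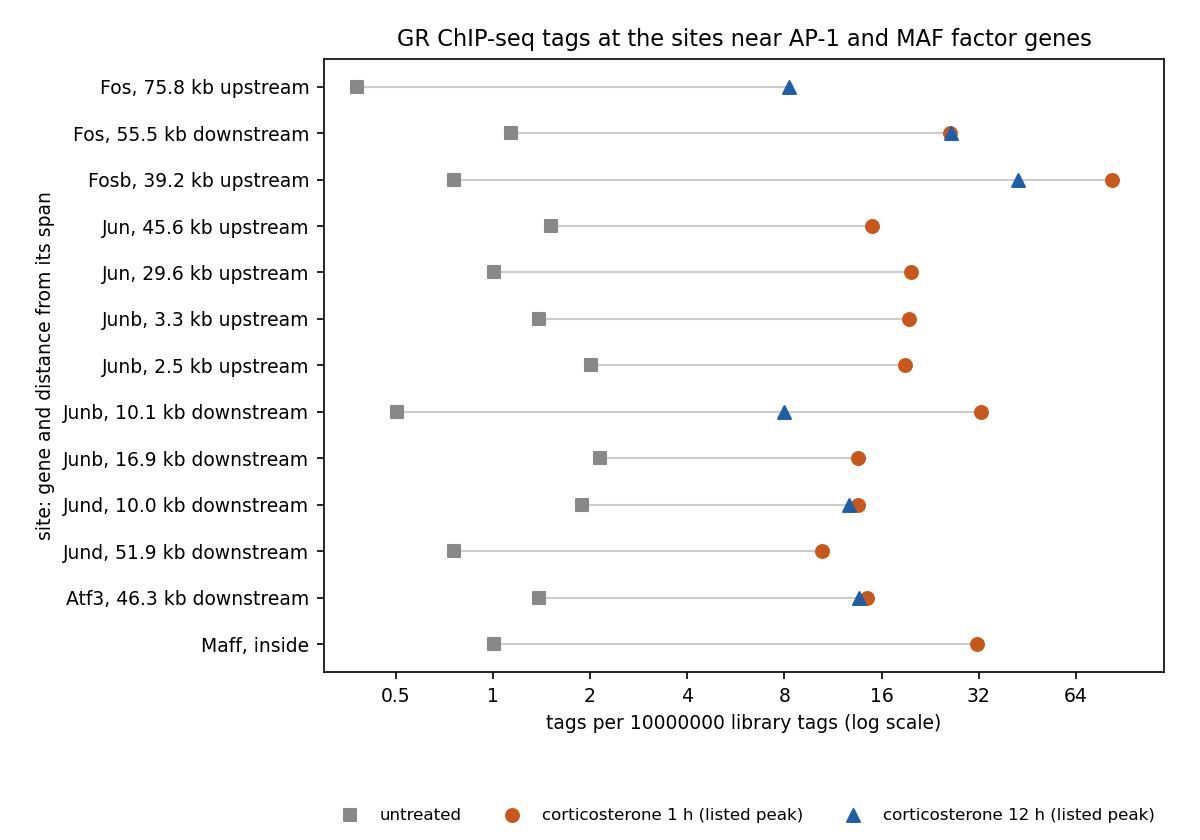
Tags per 10000000 library tags (horizontal axis, log scale) at each of the 13 sites (vertical axis, named by gene and distance from its span), in the untreated library (squares), at 1 h (circles) and at 12 h (triangles); a missing circle or triangle means that no peak was listed. The Fosb site is the highest at both times, circles and triangles nearly coincide at Fos, Jund and Atf3, and the Junb site 10.1 kb downstream has the widest gap between them.

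The FOS family supplies partners for the JUN proteins, and 2 of its 4 genes had sites, at both times. Of all protein-coding genes, 37.4% had a peak by the same rule at 1 h and 22.3% at 12 h. Fosb held the strongest site of all the members (chr7:19349193-19349475), 39.2 kb upstream of its span and inside Ercc1, a DNA repair gene. Ercc1, Cd3eap, Ppp1r13l and Ercc2 were nearer to it than Fosb. The site held 6 whole tags in the untreated library (0.758 normalised), 752 at 1 h (83.0 normalised) and 413 at 12 h (42.3 normalised). Its rank by tags was 343 of 5638 at 1 h and 434 of 2883 at 12 h. The 12 h library was lower by a log2 ratio of -0.97 (95% counting interval -1.15 to -0.80), or 0.509-fold. This is near the median of -0.85 at the shared sites of the same, strongest decile of the 1 h list by tags, which was chosen on the 1 h value that the ratio divides by. By fold over the surrounding 10 kb in place of tags, the log2 ratio was -0.52.

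Fos, the founding member of the family, had its main site 55.5 kb downstream (chr12:85532602-85532884), in the interval between Fos and Jdp2 and nearer to Fos. It held 9 whole tags in the untreated library, 236 at 1 h and 257 at 12 h. In normalised tags these were 1.14, 26.1 and 26.3. The treated values are alike within counting error, with a log2 ratio of 0.01 (-0.25 to 0.27), where shared sites of its decile of the 1 h list had a median of -0.47. Fos also had the only 12 h peak of the members without a partner at 1 h, 75.8 kb upstream and nearer to Tmed10 and Nek9 (chr12:85397904-85398206). It held 3 whole tags in the untreated library and 81 at 12 h (8.29 normalised), with a score of 88 where the lowest of the list was 75. Its rank was 2786 of 2883.

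Fosl1 and Fosl2, which encode FRA-1 and FRA-2, had no site. The nearest peak to Fosl1 was 249.66 kb away at 1 h and 394.34 kb at 12 h, although 16 other protein-coding genes lay within 100 kb of it. The nearest to Fosl2 lay just outside the limit, 100.86 kb away inside Babam2, with 11.8 normalised tags at 1 h. At the limit, the outermost site inside was the Fos site at 75.8 kb, and the next sites outside after that of Fosl2 lay 102.75 kb from Mafk and 106.69 kb from Jun.

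The JUN family, the partners that every AP-1 dimer with a FOS protein needs, had 8 of the 13 sites. At 1 h each of its 3 genes had one, where 37.4% of all protein-coding genes did. At 12 h Junb and Jund had 1 each and Jun had none, where 22.3% of all genes had one. The downstream Junb sites and the Jund sites lay nearer to other genes. Junb, an immediate early gene whose product often dampens the activity of c-Jun, had 4 sites at 1 h and 1 at 12 h. As many as 4 peaks at 1 h were found for 2.87% of all protein-coding genes. A pair lay upstream and next to each other, 2.5 kb (chr8:84981104-84981386) and 3.28 kb (chr8:84981884-84982166) from the span, with Junb the nearest gene. They held 16 and 11 whole tags in the untreated library and 171 and 176 at 1 h (18.9 and 19.4 normalised), and neither was listed at 12 h. Their folds over the surrounding 10 kb, a region that holds both, were 6.15 and 6.28, where the caller required 6. That these sites are missing at 12 h is therefore no measure of how much binding remained there.

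The strongest Junb site lay 10.1 kb downstream, inside Rnaseh2a, a ribonuclease subunit gene (chr8:84966628-84966910), with Prdx2 nearer as well. It held 4 whole tags in the untreated library, 294 at 1 h and 78 at 12 h. In normalised tags these were 0.505, 32.5 and 7.98. The log2 ratio of 12 h over 1 h was -2.02 (-2.40 to -1.66), or 0.246-fold, and only 2.3% of all 2436 shared sites had a ratio as low or lower. Of the 349 shared sites in the same decile of the 1 h list, 3 were at least 4-fold lower. At 12 h the site was barely listed, with a score of 80 where the lowest of the list was 75 and a local fold of 6.2. A further site 16.9 kb downstream, also inside Rnaseh2a, held 17 whole tags in the untreated library and 122 at 1 h (13.5 normalised), a fold of 6.28, and was listed at 1 h alone. To reach the required fold over the untreated library at 12 h it would have needed 12.9 normalised tags. In its decile of the 1 h list, 20.0% of peaks had a 12 h partner.

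Jun, which encodes c-Jun, had a pair of upstream sites at 1 h and none at 12 h, when the nearest peak was 1335 kb away. The sites lay 29.6 kb (chr4:95081679-95081961) and 45.6 kb (chr4:95097707-95097989) upstream, with Jun the nearest gene to both. They held 8 and 12 whole tags in the untreated library and 178 and 136 at 1 h (19.7 and 15.0 normalised). Another 1 h site in the same gene-poor stretch, 106.69 kb from Jun and nearest to it as well, held 26.9 normalised tags and fell outside the limit. Of all 1 h peaks in the same deciles of the list by tags as the pair, 37.4% and 26.6% were listed at 12 h, so that missing a partner was the usual outcome at this strength.

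Jund, the JUN gene that many cell types express without stimulation, had a site 10.0 kb downstream inside Iqcn (chr8:70710498-70710780), with Gm3336 nearer as well. It held 15 whole tags in the untreated library, 122 at 1 h and 124 at 12 h (1.89, 13.5 and 12.7 normalised). The treated libraries did not differ beyond counting error there, with a log2 ratio of -0.09 (-0.46 to 0.29), and the folds over the untreated library, 7.11 and 6.7, were close to the minimum. A weaker site 51.9 kb downstream, nearest to Pde4c, held 10.5 normalised tags and was listed at 1 h alone, in a decile of the list where 17.2% of peaks had a 12 h partner.

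Atf3, a stress-induced factor that pairs with JUN proteins, had a site 46.3 kb downstream (chr1:191123830-191124112). The nearest gene was Batf3, another AP-1 related factor gene, 15.0 kb from it, and Fam71a and Nsl1 were nearer than Atf3 too. The site held 11 whole tags in the untreated library, 130 at 1 h and 133 at 12 h (1.39, 14.4 and 13.6 normalised), again within counting error of each other (log2 ratio -0.08, -0.44 to 0.28). Its focus ratio, the caller's measure of how sharply tags centre on the peak, was 0.672 at 1 h, the lowest of the member peaks, where the median of the list was 0.841.

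The small MAF genes differed from each other. The Maff peak shown above held 8 whole tags in the untreated library and 286 at 1 h (1.01 and 31.6 normalised), a fold of 31.27 over the untreated library and 21.95 over the surrounding 10 kb. It was not listed at 12 h, when the nearest peak was 214.96 kb away. The weakest peak of the 12 h list held 6.96 normalised tags, and the required fold over the untreated library corresponds to 6.06 in this window. The caller also required 6-fold over the surrounding 10 kb, whose level at 12 h is not known here. These values therefore set no upper limit on the Maff tags at 12 h. Among all 1 h peaks of its decile of the list, 61.9% (Wilson 57.8 to 65.8%) were listed at 12 h. Mafk had no peak within the limit; the 12 h peak 102.75 kb away, nearest to Elfn1, held 10.2 normalised tags.

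**Figure D3:**
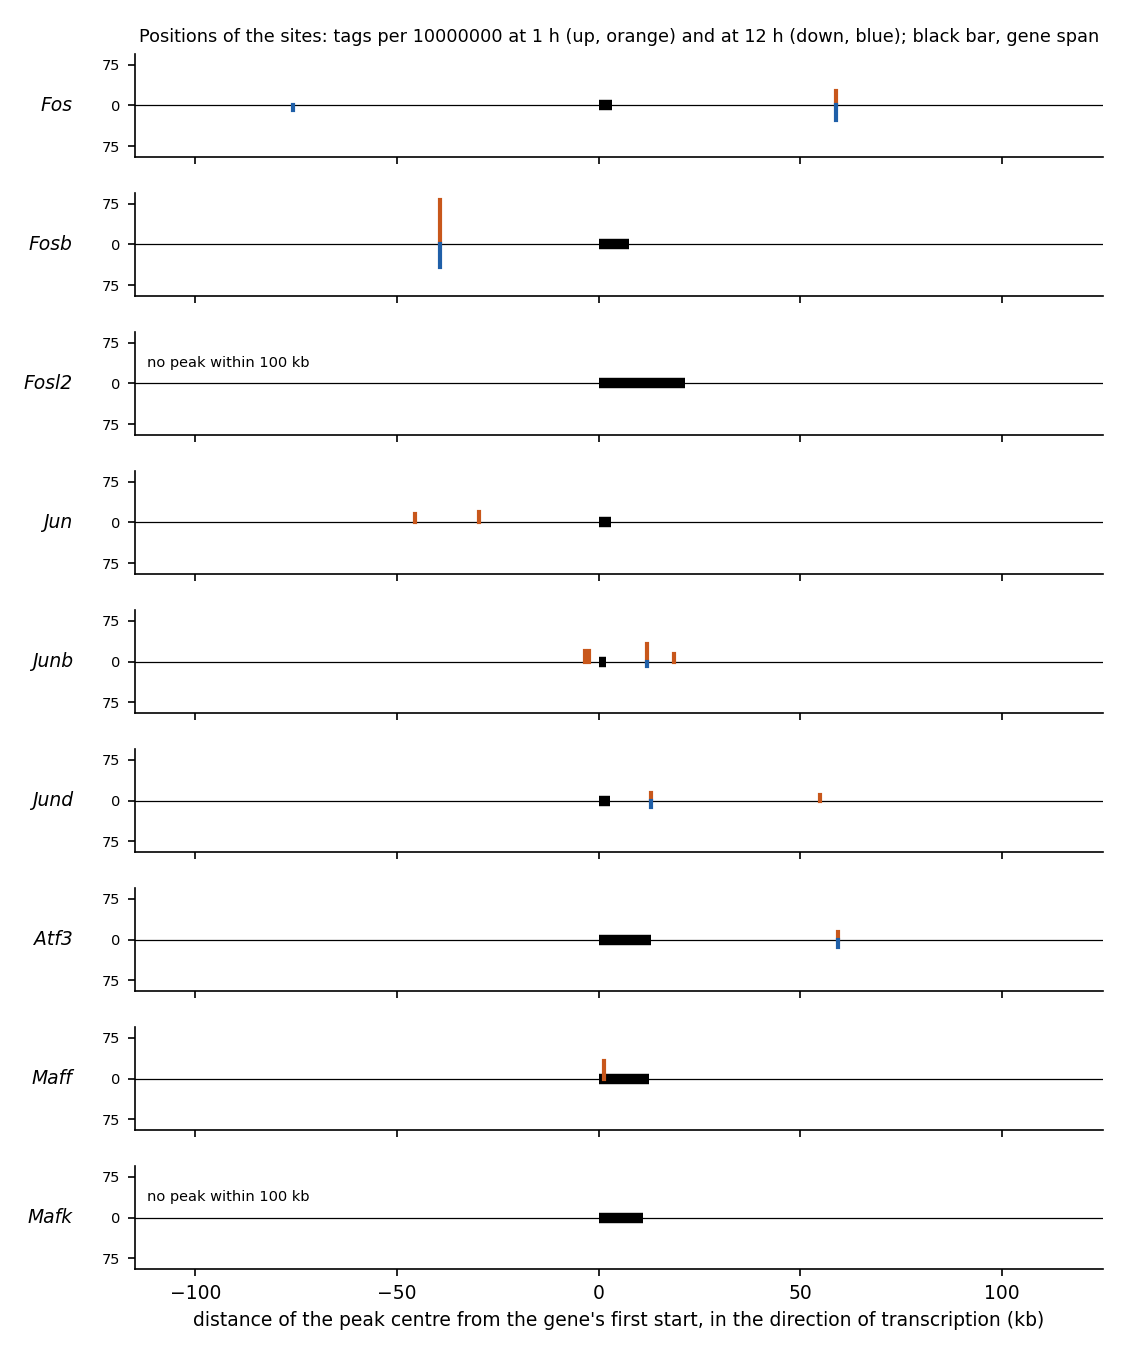
Position of each site for 9 of the 10 genes. Fosl1 is not drawn because it had no promoter entry to give its start and strand, and it had no peak. The horizontal axis gives kb from the first start of the gene in the direction of transcription. The black bar is the gene span, and line height is tags per 10000000 library tags at 1 h (up) and 12 h (down). The Maff peak is the only line on a gene span, the 4 Junb peaks lie on both sides of the gene, and the pair near Jun has upward lines only.

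Across the 5 sites listed at both times, 4 held fewer normalised tags at 12 h (77.2% of all shared sites did), and 1 was at least 2-fold lower, at Junb (24.5% of all shared sites). These counts use tags per window, and the 12 h windows were wider. In tags per base of the window, the Fos ratio was -0.09 in place of 0.01. The counting interval lay below 0 at Fosb and Junb, and held 0 at Fos, Jund and Atf3; over all shared sites these outcomes made up 61.8% and 26.8%. The median log2 ratio was -0.09 (-0.19 in tags per base), against -0.49 over all shared sites in tags per window. Relative to that overall median, the Fos, Jund and Atf3 sites stood at 0.51, 0.41 and 0.42, and the Fosb and Junb sites at -0.48 and -1.53. At Jund and Atf3 the ratios equal or nearly equal the medians of their own deciles of the 1 h list, -0.07 and -0.08. A weak 1 h site that fell far below the 12 h minimums would be unlisted and have no ratio.

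**Figure D4:**
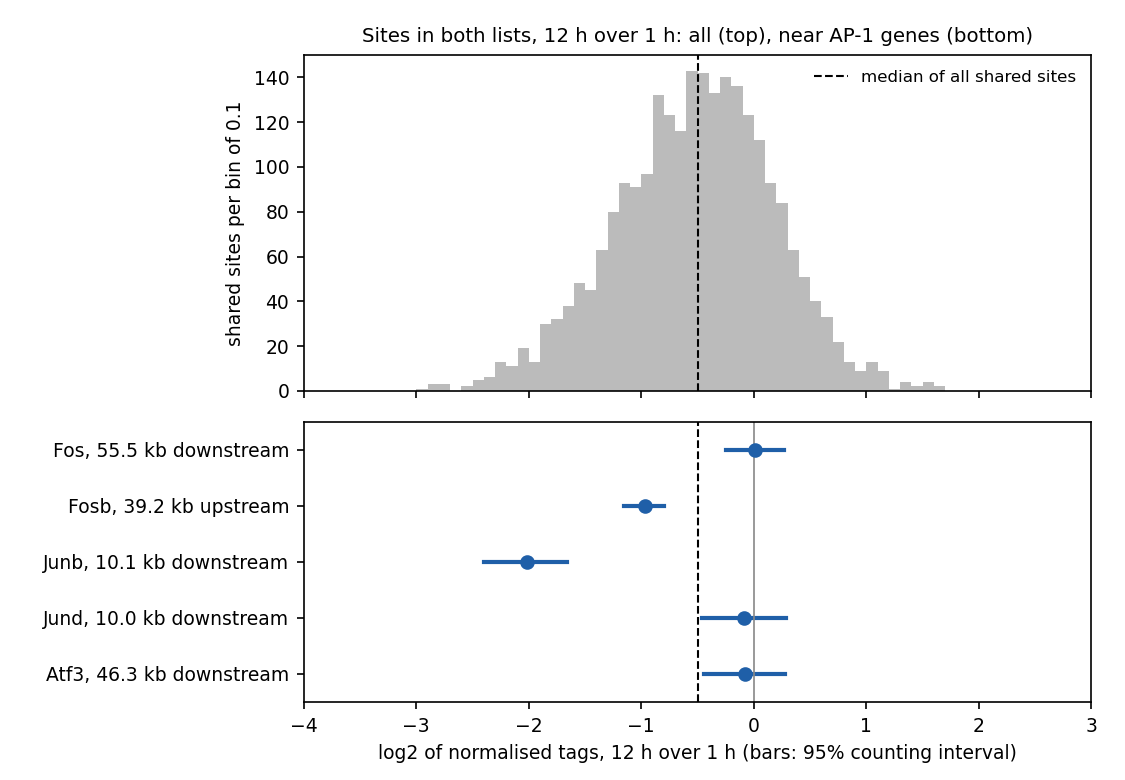
Log2 ratio of normalised tags at 12 h over 1 h (horizontal axis): the upper panel counts all 2436 shared sites in bins of 0.1, and the lower panel shows the 5 sites near AP-1 genes with 95% counting intervals, which cover the counting error of the libraries only. The dashed line is the median of all shared sites, -0.49; the Fosb and Junb sites lie to its left and the Fos, Jund and Atf3 sites to its right, around 0.

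Summed over a member's window, Junb (84.3 normalised tags) and Fosb (83.0) led at 1 h, followed by Jun (34.7), Maff (31.6), Fos (26.1), Jund (24.0) and Atf3 (14.4). At 12 h the order was Fosb (42.3), Fos (34.59), Atf3 (13.6), Jund (12.7) and Junb (7.98). A sum depends on how many peaks were listed, which was 4 for Junb and 1 for Fosb at 1 h. The protein-coding genes whose pair of sums was nearest to that of Junb were Pepd, Zbtb8a and Spink2, with 82.4, 75.5 and 75.7 at 1 h and 8.49, 8.39 and 8.49 at 12 h. This likeness rests on 2 libraries.

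Other genes of the pathway, 37 in 4 lists, were counted by the same 100 kb rule: 18 had a peak in the 1 h list and 10 in the 12 h list, beside the 37.4% and 22.3% of all protein-coding genes. These lists, too, were chosen with earlier results of these data known, and some of their sites are member sites. Of 7 other AP-1 related genes, 3 had a peak at both times: Batf3, Jdp2 and Batf. For Batf3 this was the Atf3 site. Jdp2 had 3 peaks at 1 h and 2 at 12 h, the strongest being the Fos site, 65.91 kb from Jdp2. A site inside the Jdp2 span held 22.9 and 10.0 normalised tags (log2 ratio -1.19, -1.55 to -0.84). That site, 81.92 kb from Batf, was also the one by which Batf had a peak at both times. Of 11 other MAF genes and CNC partners, 7 had one at 1 h and 4 at 12 h. Bach2, a repressor that pairs with small MAF proteins, had 6 peaks at 1 h, where at least 4 were found for 2.87% of all protein-coding genes. The window includes the gene span, so a longer gene has a wider one. The strongest Bach2 peak lay inside the Bach2 span with 167 and 91.3 normalised tags (-0.87, -0.99 to -0.75). A site 80.0 kb from Mafa, nearest to Zc3h3, held more at 12 h than at 1 h, 128.2 against 82.8 (0.63, 0.50 to 0.76). Mafg, the remaining small MAF gene and one named after its value was seen, likewise had a site with more at 12 h, 23.5 against 11.7 (1.01, 0.67 to 1.35). Of all shared sites, 1.44% were at least 2-fold higher. A value of 11.7 lies where deciles 2 and 3 of the 1 h list, counted from the weakest, meet. Shared sites there had median log2 ratios of 0.1 and -0.07, and such weak sites have a ratio only if still listed at 12 h. That site lay 82.6 kb from Mafg and nearest to Mcrip1.

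Among 10 kinases upstream of AP-1, a peak was listed for 3 at 1 h and for 1 at 12 h, against 37.4% and 22.3% of all protein-coding genes, so that neither count stood above that share. Mapk14, which encodes the stress kinase p38 alpha, held 71.4 and 62.8 normalised tags at a site inside its span (-0.19, -0.35 to -0.02), and Map2k4, which activates JNK, held 12.5 at 1 h alone, nearest to Dnah9. Of 9 other immediate early factors and their activators, a peak was listed for 5 at 1 h and for 2 at 12 h, against the same 37.4% and 22.3%; the 12 h count is at that share. The strongest lay 93.6 kb from Egr3 and nearest to Pdlim2, with 30.4 and 17.5 normalised tags (-0.80, -1.08 to -0.52), followed by a site 45.2 kb from Ier5 with 22.0 at 1 h alone.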

How the data were processed

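The submitters' processing notes name bcl2fastq 2.17, Bowtie2 2.2.6, HOMER and the mm10 build. Per the file headers, HOMER findPeaks listed peaks separately for each library, at a false discovery rate of 0.001, a threshold of 75 (the lowest score in both treated lists), and 6-fold or more over both the control library and the surrounding 10 kb. The normalised tag count, a signal per 10000000 tags, the focus ratio (a fraction), the score, the fold ratios and the p-value (not used) are the authors' deposited values. The treated tag counts were deposited scaled to the untreated library; scaled back they gave whole tags for 100% of peaks within 0.1 tag. The untreated list gives its tags as a deposited count.

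Lists were paired by 1 bp of overlap. Ratios have exact binomial (Clopper-Pearson) 95% intervals and shares Wilson intervals, which cover counting error only; they compare libraries, not conditions. Gene spans and promoters are RefSeq, GRCm38.p6 (chromosomes 1 to 19, X and Y); all 10 members and 37 pathway genes matched, and 9 members had promoters. Pairing and intervals were tested on simulated data (python 3.11.15, scipy 1.17.1). Members and lists were chosen with earlier results of these data known. By rule, the text names all members with their peaks, the genes nearer to a member's strongest site, up to 2 genes per pathway list by 1 h tags (Batf3 and Mafg were added after their values were seen), and the 3 genes nearest to the member with the largest 1 h sum, on log2 of the sums plus 1.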

Additional observations from a re-analysis of the deposited data

How the results depend on the processing

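The distance allowed decided the counts most. At 1 h the 7 members and 12 peaks became 2 and 3 within 10 kb and 3 and 6 within 25 kb, and the peaks 26 within 200 kb. At 12 h the 5 members and 6 peaks became 1 and 1 within 10 kb and 2 and 2 within 25 kb, with 14 peaks within 200 kb. Sites in both lists (5) numbered 1, 2 and 12 within 10, 25 and 200 kb. Limited to peaks with the member as nearest protein-coding gene, 4 members with 6 peaks were left at 1 h and 1 with 1 at 12 h. With tags at 2 or more times the threshold, 7 peaks were left at 1 h, 2 members with 2 peaks at 12 h, and 2 sites in both lists. A fold of at least 12 left 7 peaks at 1 h and 3 members at 12 h. Centred on the median of all shared sites, the median log2 ratio of -0.09 became 0.41. The other 21 values tried for these results stayed within 1.5 times the count or within counting error, stricter pairing among them. No paired analysis was possible because there is 1 library per condition, and no library could be left out for the same reason. Depth limits each ratio to the interval printed beside it.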
